A study of Mus musculus with 6 samples.

Results

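Collagen chains of all types were examined in dermal fibroblasts, as every gene whose symbol follows the pattern of Col, a type number, the letter a and a chain number. This gave 44 genes among the 22180 named genes on the array, and the RefSeq gene table also lists 44. They were carried by 47 probe sets that name a single gene. For Col1a2, Col5a1 and Col6a1, which had a further probe set, the probe set with the highest mean over the 6 samples was used. All samples were sorted fibroblasts of ventral skin, from female C57BL/6 mice aged 8 to 12 weeks. The KrP group held 3 samples from nipple-like skin of mice with the K14 Pthrp transgene, whose keratin promoter is known for its activity in basal keratinocytes, and transgene expression in the sorted cells was not analysed here. The WT group held 3 samples from resting-phase (telogen) skin of wild-type littermates without the transgene. Per the labels, skin from 3 mice was the source of cells and the cells were pooled before sorting for CD140, with CD31, CD45, CD117 and CD49f positive cells left out. Whether the samples of a group came from separate animals is not stated, so p-values measure the spread between these samples only, which may be technical.

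Collagens are matrix proteins whose chains carry long glycine-rich repeats and wind around one another into a stiff helix inside the cell before secretion. Fibrillar collagens assemble into the banded fibrils that give dermis its strength, and fibril-associated collagens with interrupted helices (FACIT) sit on the surface of those fibrils. Network collagens form sheets, above all in the basement membrane, beaded collagens form fine microfibrils around cells, and transmembrane collagens span the cell membrane. Dermal fibroblasts are best known as the makers of collagens I, III, V and VI.

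Each sample was measured on 1 array, and values are log2 expression values as deposited, with medians of 6.34 to 6.43 per array. Arrays of a group correlated with each other by 0.986 to 0.994, and arrays of different groups by 0.975 to 0.989. All 8 fibroblast markers other than collagens lay above the array background in both groups, taken here as a log2 value of 6.28, below which 95% of the means of 1105 olfactory receptor genes lay. The mean log2 value over 9 keratinocyte markers was 6.91 in WT 2 and between 5.98 and 6.20 in the other samples. Of 6 immune markers 1, Cd68, was above background in both groups. A value below background is compressed, and levels are not compared between genes because probes differ in their response. Fewer cells of a type and less RNA per cell cannot be told apart in such bulk samples.

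In KrP fibroblasts the chains Col14a1, Col6a3 and Col5a3 rose and the basement membrane chains Col4a1 and Col4a2 fell. Col14a1 was 3.53-fold higher and Col6a3 3.00-fold higher, while Col5a3 was 1.58-fold higher. Col4a2 was 1.64-fold lower and Col4a1 1.57-fold lower. The other 39 chains did not pass the test, which was limma's moderated test over all genes at a Benjamini-Hochberg adjusted p under 0.05. The 5 called chains were 11.4% of the 44, where 2.18% of all genes were called (1.15% higher and 1.03% lower in KrP). With the replicate number as a block, 7 chains rose and 3 fell, 22.7% of the 44 against 8.35% of all genes (5.33% higher and 3.02% lower). The median log2 fold change, KrP mean minus WT mean, was -0.01 over the 44 chains and 0.01 over all genes. Samples of the 2 groups did not overlap for 10 chains, 5 with every KrP sample above and 5 with every KrP sample below the WT samples. That share, 22.7%, was close to the 20.3% of all genes whose groups did not overlap (11.4% all above and 8.93% all below). At an unadjusted p under 0.05 there were 12 chains, 27.3% of the 44, where 16% of all genes passed. With the block there were 19 chains, 43.2% against 23% of all genes.

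**Figure D1:**
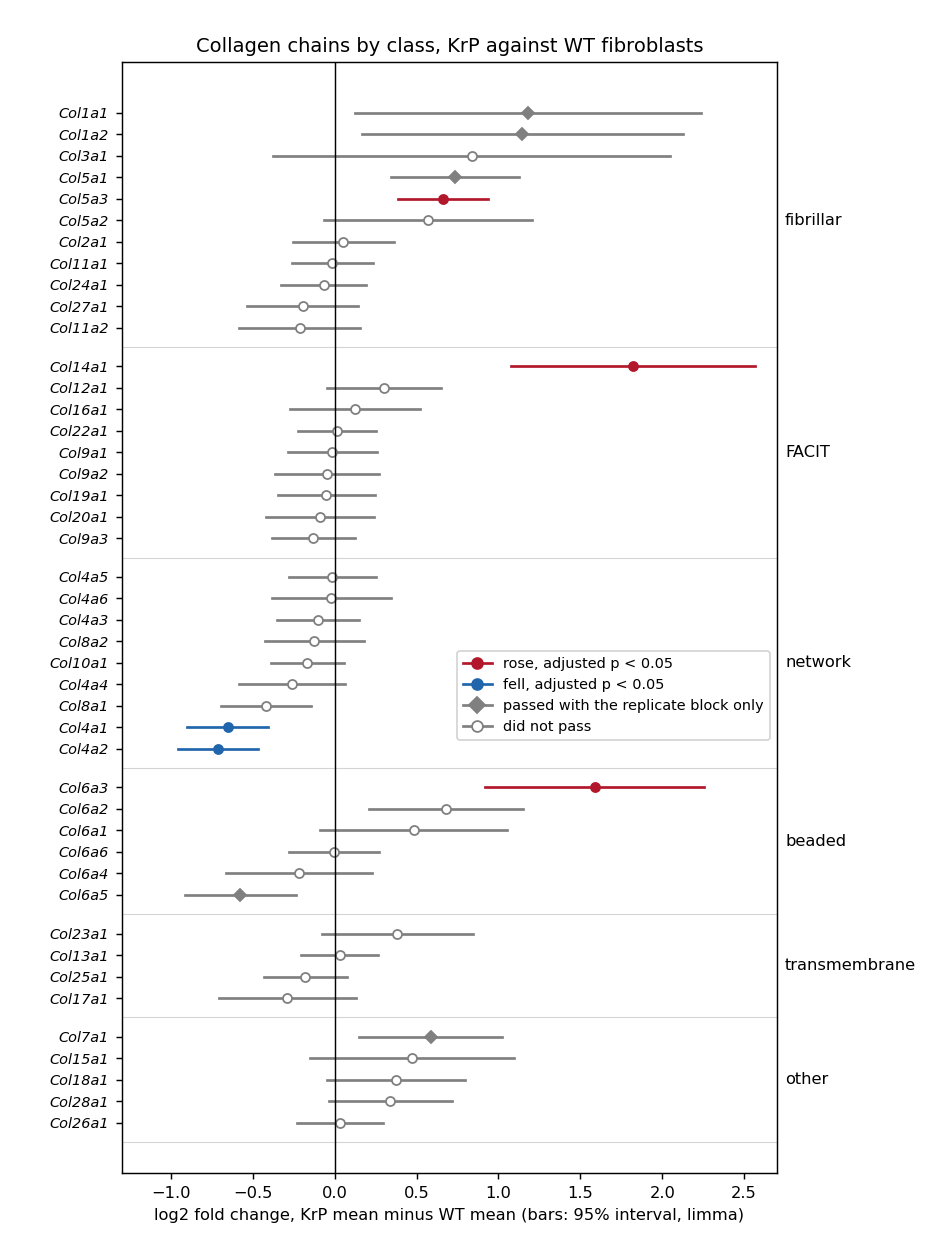
Log2 fold change (KrP mean minus WT mean, horizontal axis) of each of the 44 collagen chains, grouped by class, with bars for the 95% interval from limma. Filled red and blue circles mark the 3 chains that rose and the 2 that fell in the main fit. Grey diamonds mark the 5 that passed with the replicate block but not in the main fit, and open circles the other 34.

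Most of these calls depended on single samples other than KrP 2. Without KrP 3, WT 3 or WT 2 no collagen chain passed the adjusted threshold in limma, although 9, 13 and 12 chains had an unadjusted p under 0.05 (20.5%, 29.5% and 27.3% of the 44, against 10.6%, 11.1% and 13.3% of all genes in the same fits). Without WT 1 the call of Col14a1 held, and without KrP 1 those of Col4a1 and Col4a2 held. Without KrP 2, in contrast, 9 chains passed, adding Col5a1, Col5a2, Col6a2 and Col7a1 to the 5. Calls over all 22180 genes moved the same way, from 483 in the main fit to 1116 without KrP 2. They were 85, 101 and 256 without KrP 3, WT 3 or WT 2. After quantile normalisation 0 chains rose and 2 fell. Over all genes 207 then rose and 242 fell, 449 calls in all, against 255 and 228 in the main fit. The adjusted p after quantile normalisation was 0.0540 for Col14a1, 0.05002 for Col6a3, just above the threshold, and 0.0736 for Col5a3. The direction of these 5 chains was the same in each of the 16 alternative fits.

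Among the 11 fibrillar chains 1 rose, 0 fell and 10 did not pass (4 rose and 0 fell with the block), and the median log2 fold change was 0.57. Col5a3, a chain of the minor fibrillar collagen V, had log2 values of 8.57, 8.74 and 8.73 in WT 1, 2 and 3 and of 9.36, 9.24 and 9.43 in KrP 1, 2 and 3. Each KrP sample was at least 0.50 above the highest WT sample. The log2 fold change was 0.66 ± 0.12 (SE; adjusted p = 0.0347 by limma). Leaving out any sample other than KrP 2 ended this call. The adjusted p was then 0.0999, 0.0779 and 0.155 when WT 1, WT 2 or WT 3 was absent, and 0.0746 and 0.214 when KrP 1 or KrP 3 was absent.

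Col5a1, the collagen V chain that helps to start fibril formation and set fibril width, had log2 values of 8.82, 9.18 and 9.09 in WT and of 9.81, 9.47 and 10.01 in KrP samples. The groups did not overlap, but the difference of 0.73 ± 0.17 (SE) missed the threshold without the block (adjusted p = 0.0775) and passed with it (0.0350). It also passed without KrP 2 (0.0223). The second Col5a1 probe set, at 6.29 to 6.82 over the 6 samples, had a KrP minus WT difference of 0.16. Col5a2 had log2 values of 8.28, 8.51 and 8.79 in WT and of 9.25, 8.46 and 9.58 in KrP samples, so that KrP 2 lay among the WT samples. Its log2 fold change was 0.57, with a 95% interval from -0.07 to 1.21 (adjusted p = 0.367, or 0.0413 without KrP 2).

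Collagen I, the main protein of dermal fibrils, is built from the products of Col1a1 and Col1a2. Col1a1 had log2 values of 10.33, 10.78 and 11.84 in WT and of 12.44, 11.26 and 12.79 in KrP samples. KrP 1 and KrP 3 were above every WT sample, whereas KrP 2 was below WT 3. Col1a2 had log2 values of 9.80, 10.33 and 11.35 in WT and of 11.73, 10.94 and 12.25 in KrP samples, in the same order. The log2 fold changes were 1.18 ± 0.46 (SE) for Col1a1 and 1.15 ± 0.43 for Col1a2. Neither passed without the block (adjusted p = 0.258 and 0.237), and both passed with the replicate block (0.0486 and 0.0323). The second Col1a2 probe set had a difference of 0.88.

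Col3a1, whose product forms fibrils together with collagen I, also spread widely within the groups. Its log2 values were 8.66, 8.86 and 10.00 in WT and 10.33, 8.84 and 10.86 in KrP samples. KrP 2 lay below WT 2, whereas KrP 1 and KrP 3 were above WT 3. The SD was 0.72 in WT and 1.05 in KrP samples, and the log2 fold change of 0.84 had a 95% interval from -0.37 to 2.05 (adjusted p = 0.498, or 0.133 with the block). The remaining fibrillar chains are best known from cartilage or from developing tissues. Col2a1, Col11a1, Col11a2, Col24a1 and Col27a1 had log2 fold changes between -0.21 (Col11a2) and 0.05 (Col2a1), none of which passed. Col11a1 was below background in both groups.

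**Figure D2:**
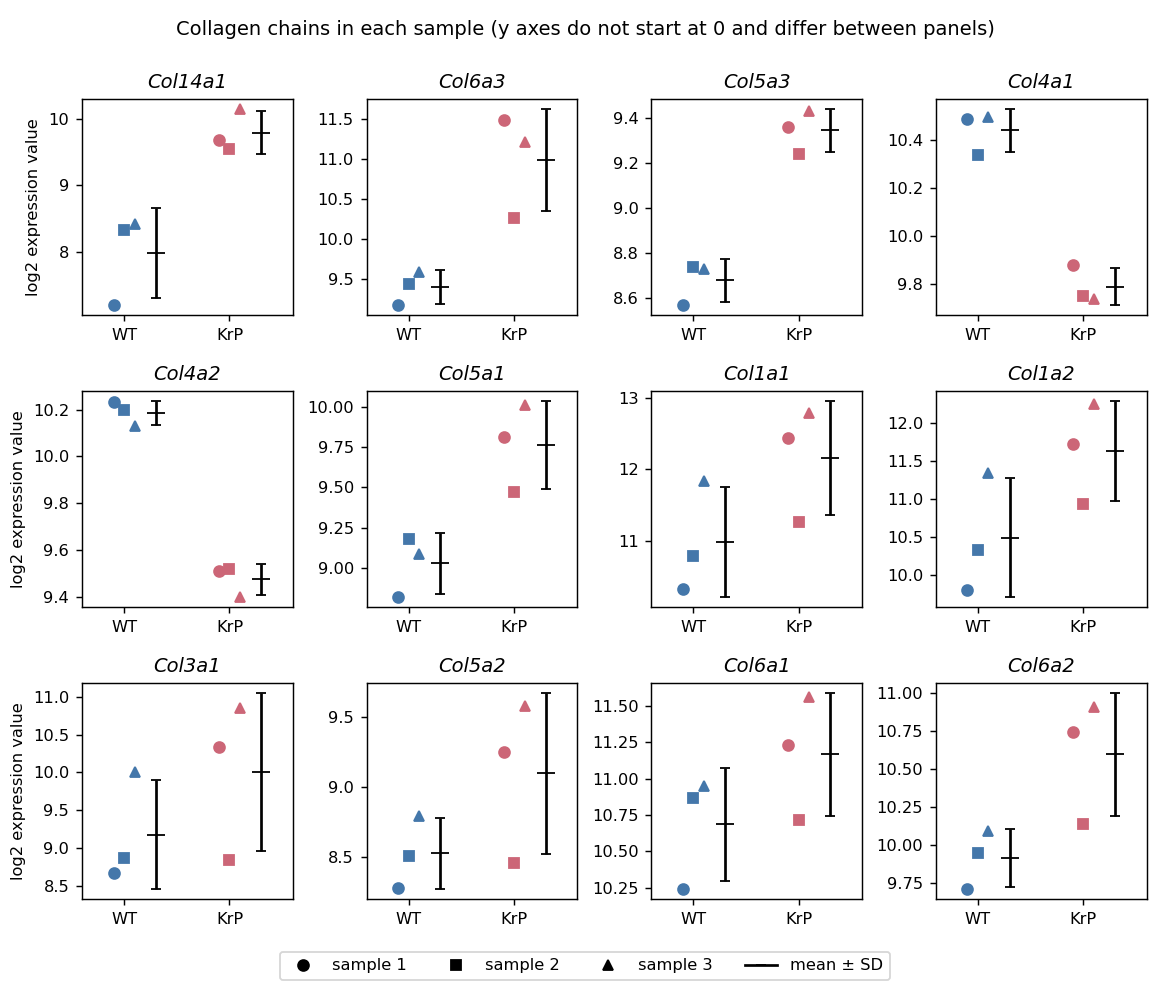
Log2 expression value (vertical axis, a separate range in each panel that does not start at 0) of 12 collagen chains in each WT and KrP sample, with symbols for the sample number and bars for the mean ± SD of 3 samples. Col14a1, Col6a3, Col5a3, Col5a1, Col6a2, Col4a1 and Col4a2 show no overlap between the groups, whereas KrP 2 falls into the WT range for Col1a1, Col1a2, Col3a1, Col5a2 and Col6a1.

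Among the 9 FACIT chains Col14a1 rose, none fell and 8 did not pass, with a median log2 fold change of -0.01. Col14a1 encodes collagen XIV, which binds the surface of collagen I fibrils and regulates their growth. Its log2 values were 7.19, 8.33 and 8.41 in WT and 9.68, 9.55 and 10.16 in KrP samples. WT 1 stood lowest, and the gap of 1.14 between the highest WT and the lowest KrP sample was the widest among the 44 chains. The log2 fold change was 1.82 ± 0.32 (SE; 95% interval 1.07 to 2.57; adjusted p = 0.0338 by limma, or 0.00690 with the block). It ranged from 1.43 to 2.04 when 1 sample was left out. The call held in the absence of WT 1 (adjusted p = 0.0313) or KrP 2 (0.0274). It was lost when WT 2 (0.0600), WT 3 (0.0771), KrP 1 (0.0623) or KrP 3 (0.172) was left out.

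Col12a1, whose product is closely related to collagen XIV, had log2 values of 10.27, 10.04 and 10.48 in WT and of 10.34, 10.68 and 10.68 in KrP samples. The groups overlapped, and the log2 fold change of 0.30 had a 95% interval from -0.05 to 0.65 (adjusted p = 0.381). Col16a1 (0.12), Col22a1 (0.01), Col20a1 (-0.09) and the cartilage collagen IX chains Col9a1 (-0.01), Col9a2 (-0.05) and Col9a3 (-0.13) had small log2 fold changes that did not pass. Col9a1 and Col19a1 lay below background in both groups.

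All 9 network chains had a lower mean in KrP samples, although Col4a5 and Col4a6 changed sign under at least 1 alternative. Of these chains 6 lay below background in both groups, where differences are compressed. Of the 9, 2 fell, and the class median of -0.17 was the value of Col10a1, itself below background. The 2 were Col4a1 and Col4a2, whose products join in the main collagen IV molecule of basement membranes, including those around vessels. Col4a1 had log2 values of 10.49, 10.34 and 10.50 in WT and of 9.88, 9.75 and 9.74 in KrP samples. Col4a2 had log2 values of 10.23, 10.20 and 10.13 in WT and of 9.51, 9.52 and 9.40 in KrP samples. Both chains were tight within groups, with SDs between 0.05 and 0.09, and did not overlap between them. The log2 fold changes were -0.65 ± 0.11 (SE; adjusted p = 0.0257 by limma) and -0.71 ± 0.11 (adjusted p = 0.0169).

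The calls of Col4a1 and Col4a2 held without KrP 1 (adjusted p = 0.0337 and 0.0311) and without KrP 2 (0.0294 and 0.0163). Both calls were lost when WT 1 (0.0854 and 0.0657), WT 2 (0.0519 and 0.0572), WT 3 (0.156 and 0.0948) or KrP 3 (0.171 and 0.129) was left out. Endothelial and mural cells also make collagen IV, and their markers were read beside these chains. Of 8 endothelial markers, 7 lay above background in WT and 5 in KrP samples, and Tek and Cldn5 fell while none rose. The mean log2 value over these 8 ran from 6.72 to 7.03 in WT and from 6.54 to 6.76 in KrP samples. These markers went both ways. The log2 fold changes were -1.41 for Kdr, whose groups did not overlap (adjusted p = 0.0658), -0.95 for Cldn5, -0.76 for Tek, -0.05 for Pecam1 (CD31) and Vwf, 0.02 for Egfl7, 0.36 for Emcn and 0.54 for Cdh5. Of 7 mural markers 6 were above background in each group, and the list mean ran from 7.32 to 7.51 in WT and from 7.33 to 7.63 in KrP samples. Cspg4 fell (log2 fold change -1.10), whereas Acta2 had every KrP sample above every WT sample (1.31, adjusted p = 0.154), and the other 5 lay between -0.16 (Mcam) and 0.29 (Myh11). The part of these cells in the fall of Col4a1 and Col4a2 was not tested.

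The starts of Col4a1 and Col4a2 lie head to head on opposite strands, and the promoter windows of these 2 chains are shown because the chains fell by a similar amount. Those of Col5a3 and Col6a3, which rose, are shown for comparison. Each window holds 250 bases before and 50 bases after the start, from the RefSeq promoter table of build GRCm38.p6, written 5′ to 3′ on the strand of the gene. They lie at chr8:11312777-11313076 (reverse strand) for Col4a1, chr8:11312555-11312854 (forward strand) for Col4a2, chr9:20815018-20815317 (reverse strand) for Col5a3, and chr1:90843922-90844221 (reverse strand) for Col6a3. Capitals mark 3 short motifs, read on either strand: the GC box with the letters GGGCGG, the CCAAT box with the letters of its name, and the TATA box with the letters TATAAA.
Col4a1: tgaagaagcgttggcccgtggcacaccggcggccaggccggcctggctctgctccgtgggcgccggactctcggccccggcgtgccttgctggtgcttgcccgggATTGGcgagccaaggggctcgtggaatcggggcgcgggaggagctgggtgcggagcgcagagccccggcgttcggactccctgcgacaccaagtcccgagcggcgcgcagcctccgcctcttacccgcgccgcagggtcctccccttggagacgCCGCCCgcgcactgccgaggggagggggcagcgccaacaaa
Col4a2: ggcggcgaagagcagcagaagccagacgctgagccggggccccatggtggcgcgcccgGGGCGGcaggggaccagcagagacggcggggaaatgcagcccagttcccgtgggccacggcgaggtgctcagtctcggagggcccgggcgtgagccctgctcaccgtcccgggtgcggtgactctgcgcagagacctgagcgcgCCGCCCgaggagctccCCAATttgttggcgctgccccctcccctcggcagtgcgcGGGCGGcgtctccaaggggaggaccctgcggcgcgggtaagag
Col5a3: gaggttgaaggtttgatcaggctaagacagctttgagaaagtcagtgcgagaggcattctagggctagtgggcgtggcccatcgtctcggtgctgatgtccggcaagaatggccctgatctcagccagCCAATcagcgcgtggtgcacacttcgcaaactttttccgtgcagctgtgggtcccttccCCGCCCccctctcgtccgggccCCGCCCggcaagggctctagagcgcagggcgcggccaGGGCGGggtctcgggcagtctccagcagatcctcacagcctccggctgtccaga
Col6a3: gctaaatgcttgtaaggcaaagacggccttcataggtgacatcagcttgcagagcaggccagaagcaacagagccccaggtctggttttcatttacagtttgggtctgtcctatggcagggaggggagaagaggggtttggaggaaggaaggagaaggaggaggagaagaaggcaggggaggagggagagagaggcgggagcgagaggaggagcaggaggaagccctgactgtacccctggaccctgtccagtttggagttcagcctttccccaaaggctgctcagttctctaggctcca

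The Col4a1 and Col4a2 windows share 78 bases. The Col4a1 window has a GC content of 74.0% with 1 GC box and 1 CCAAT box, and the Col4a2 window has 73.7% with 3 GC boxes and 1 CCAAT box. The Col5a3 window holds 3 GC boxes and 1 CCAAT box at a GC content of 63.3%, and the Col6a3 window holds none of the 3 motifs at 56.3%. Windows (38 in all) matched 35 of the 44 chain genes, of which 22 (62.9%) had a GC box, 13 (37.1%) a CCAAT box and 5 (14.3%) a TATA box in at least 1 window. Counted per gene in the same way over all 27025 genes of the table, the shares were 38.2%, 41.1% and 15.7%, and over its 32851 windows 35.7%, 37.4% and 13.6%. A match of letters is a description and not a binding site.

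Of the other network chains, Col8a1, which encodes a collagen of vessel walls and of Descemet's membrane in the eye, had log2 values of 6.69, 6.82 and 6.91 in WT and of 6.29, 6.33 and 6.55 in KrP samples. The groups did not overlap, yet the log2 fold change of -0.42 (95% interval -0.69 to -0.14) did not pass (adjusted p = 0.138, or 0.0515 with the block). Col4a3, Col4a4, Col4a5, Col4a6, Col8a2 and Col10a1, which serve in kidney, eye or cartilage among other sites, lay below background in both groups. Their log2 fold changes ran from -0.26 (Col4a4) to -0.01 (Col4a5).

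Collagen VI is the beaded collagen, and its common form joins the products of Col6a1, Col6a2 and Col6a3. Of the 6 beaded chains 1 rose, 0 fell and 5 did not pass (1 rose and 1 fell with the block), with a median log2 fold change of 0.24. Col6a3 had log2 values of 9.17, 9.43 and 9.59 in WT and of 11.48, 10.26 and 11.21 in KrP samples. Each KrP sample was above every WT sample, with KrP 2 nearest to them. The log2 fold change was 1.59 ± 0.29 (SE; 95% interval 0.92 to 2.25; adjusted p = 0.0364 by limma, or 0.0147 with the block). It was 1.95 without KrP 2 (adjusted p = 0.00151), and the call was lost when WT 1 (0.103), WT 2 (0.103), WT 3 (0.129), KrP 1 (0.0642) or KrP 3 (0.191) was left out.

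The partner chains differed less between groups. Col6a2 had log2 values of 9.71, 9.95 and 10.09 in WT and of 10.74, 10.14 and 10.91 in KrP samples. The groups were apart by 0.05, and the log2 fold change of 0.68 ± 0.21 (SE) did not pass (adjusted p = 0.153, or 0.0522 with the block and 0.0163 without KrP 2). Col6a1 had log2 values of 10.24, 10.87 and 10.95 in WT and of 11.23, 10.72 and 11.56 in KrP samples, with KrP 2 below WT 2. Its log2 fold change was 0.48, with a 95% interval from -0.09 to 1.06 (adjusted p = 0.397), and its second probe set gave 0.52. The rise of Col6a3 beyond the mean change of Col6a1 and Col6a2 was 1.40, 0.74 and 0.88 in KrP 1, 2 and 3, on a log2 scale on which WT samples ran from -0.08 to 0.10. That difference of 1.00 had an exact two-sided permutation p of 0.1, the smallest that 3 against 3 samples can give.

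The same reading was made for 4 sets of partner chains, all chosen after their values were seen. The KrP minus WT difference was 0.03 for Col1a1 relative to Col1a2, 0.06 for Col4a1 relative to Col4a2, and 0.01 for Col5a3 relative to the mean of Col5a1 and Col5a2. The exact permutation p was 0.7, 0.7 and 1 for these. Partner chains of collagens I and IV thus differed between groups by amounts within 0.1 of each other, and those of collagen VI by amounts 1.00 apart, none with a permutation p under 0.05, which this exact test cannot reach with 3 against 3 samples.

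**Figure D3:**
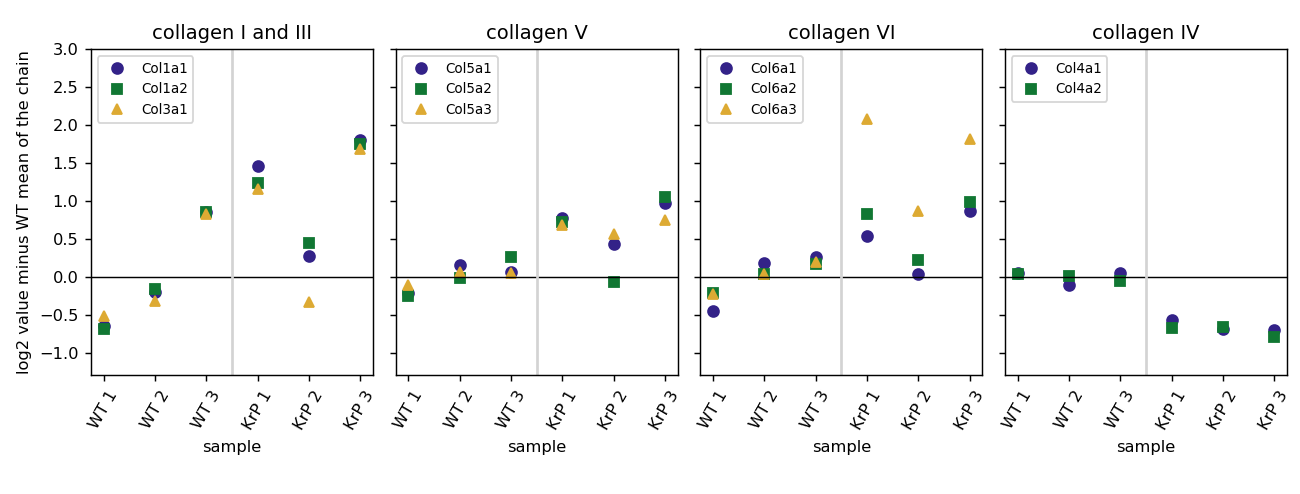
Log2 value of each chain minus its own WT mean (vertical axis) in each of the 6 samples, for the chains of collagens I and III, V, VI and IV. Col6a3 lies above Col6a1 and Col6a2 in all 3 KrP samples, by 0.74 to 1.40 relative to their mean, while Col4a1 and Col4a2 lie below 0 together.

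The alternative collagen VI chains Col6a4, Col6a5 and Col6a6, which can take the place of Col6a3 in the molecule, did not rise with it. Col6a5 had log2 values of 6.41, 6.25 and 6.74 in WT and of 5.74, 5.99 and 5.94 in KrP samples, so that all KrP samples were lower and below background. Its log2 fold change was -0.58 ± 0.15 (SE; adjusted p = 0.101, or 0.0459 with the block). Col6a4 had a log2 fold change of -0.22 and Col6a6 one of less than 0.1 in size, and neither passed.

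None of the 4 transmembrane chains passed, and their median log2 fold change was -0.08. Col23a1 had log2 values of 7.96, 7.95 and 8.13 in WT and of 8.80, 7.99 and 8.40 in KrP samples (log2 fold change 0.38, 95% interval -0.08 to 0.84; adjusted p = 0.405). Col17a1, which anchors basal keratinocytes to the basement membrane, had 7.35, 7.87 and 7.29 in WT and 7.00, 7.36 and 7.28 in KrP samples. WT 2, the sample with the highest level of keratinocyte markers, also had the highest Col17a1 value. The log2 fold change of Col17a1 was -0.29 with WT 2 and -0.11 without it (adjusted p = 0.496 and 0.817). Col25a1 and Col13a1 had log2 fold changes of -0.18 and 0.03.

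The other 5 chains lie outside these classes, and all 5 had a higher mean in KrP samples, although Col26a1 changed sign under at least 1 alternative. Their median log2 fold change was 0.38, and none passed without the block (1 with it). Col7a1 encodes the anchoring fibril collagen, which fastens the epidermal basement membrane to the dermis and is made by keratinocytes and fibroblasts. Its log2 values were 7.69, 7.75 and 8.08 in WT and 8.48, 8.08 and 8.72 in KrP samples. KrP 2 and WT 3 had the same value, and the other KrP samples were higher. The log2 fold change of 0.59 ± 0.19 (SE) had an adjusted p of 0.178, or 0.0358 with the block and 0.0479 without KrP 2. The mean over the keratinocyte markers was 6.08 to 6.91 in WT and 5.98 to 6.18 in KrP samples, and the part of such cells in the Col7a1 values was not tested.

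Col15a1 and Col18a1 encode the multiplexins, basement membrane collagens whose ends can be cut off as fragments that restrain vessel growth. Col15a1 had log2 values of 6.96, 7.43 and 7.56 in WT and of 7.39, 7.59 and 8.39 in KrP samples (log2 fold change 0.47, 95% interval -0.15 to 1.10; adjusted p = 0.449). Col18a1 had 7.79, 8.38 and 7.99 in WT and 8.20, 8.60 and 8.49 in KrP samples (log2 fold change 0.38, 95% interval -0.04 to 0.80; adjusted p = 0.366). The groups overlapped for both genes. Col28a1, below background in both groups, had a log2 fold change of 0.34 and Col26a1 of 0.03.

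The major dermal chains shared the lowest sample of each group. Over 9 chains chosen after their values were seen (those of collagens I, III and V, and Col6a1, Col6a2 and Col6a3), KrP 2 was the lowest KrP sample for all 9 and WT 1 the lowest of all 6 samples for all 9. KrP 3 was the highest of the 6 samples for 8 of them and KrP 1 for the other, Col6a3. The highest WT sample was WT 3 for 7 of the 9 and WT 2 for 2. Col14a1, Col7a1, Col16a1 and Col2a1, outside the 9, also had WT 1 lowest of all samples, KrP 2 lowest of KrP and KrP 3 highest of all. Over all genes KrP 2 was the lowest KrP sample for 31.5%, WT 1 the lowest of the 6 for 14.6% and KrP 3 the highest of the 6 for 11.4%. Over all 44 chains these shares were 43.2%, 47.7% and 31.8%. Col4a1 and Col4a2 did not follow this order, as KrP 2 (9.75) lay between the other KrP samples for Col4a1 and was the highest of them (9.52) for Col4a2.

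**Figure D4:**
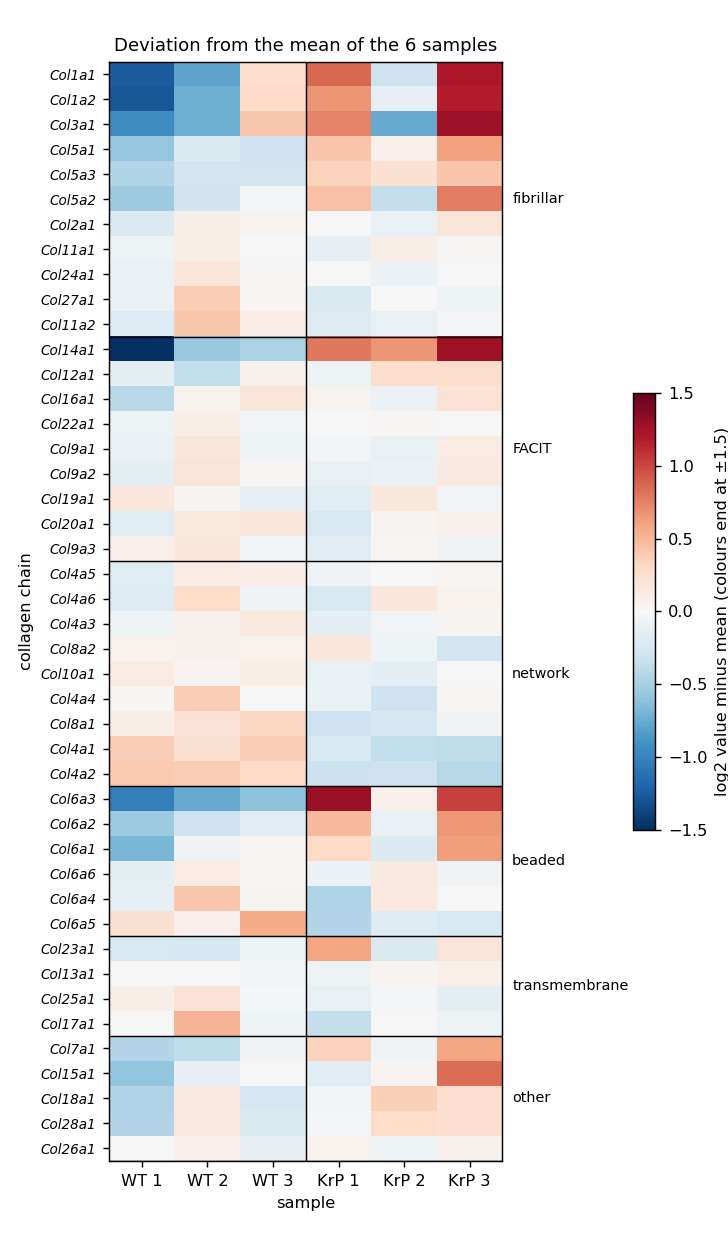
Deviation of each collagen chain from its mean over the 6 samples (colour, log2 units, ending at ±1.5), with samples in columns and chains in rows by class. The chains of collagens I, III and V and Col6a1, Col6a2 and Col6a3 share low values in WT 1 and high values in KrP 3, with KrP 2 between. Col14a1, Col7a1, Col16a1 and Col2a1 show this order too. Col6a4, Col6a5 and Col6a6 do not share this order, and Col4a1 and Col4a2 are low in all 3 KrP samples.

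Genes that act on collagen outside the chains themselves were read in 4 lists, of which 73 of 80 listed genes were measured. Of these 7 rose and 8 fell, 20.5% of the 73 against 2.18% of all genes. With the block 22 rose and 11 fell, 45.2% against 8.35%. The lists were chosen with earlier results of these data known, so these shares are a description only. Of the 73 genes 66 lay above background in both groups, against 13053 of all 22180 genes. With WT 1, WT 2 or WT 3 left out there were 7, 6 and 5 calls, and with KrP 1, KrP 2 or KrP 3 left out 10, 22 and 3. P4ha3, Tll1 and Mmp9 passed in each of these 6 fits, and the other 12 called genes lost the call in at least 1 of them. Plod2, Loxl4, Podn, Mmp13 and Ctsk held it in only 1 of the 6. Thbs2, with an adjusted p of 0.04996 by limma in the main fit, held it in 0. Of 29 genes for collagen biosynthesis and processing, 4 rose and 2 fell (the block gave 11 and 3), and the median log2 fold change was 0.33. P4ha3, a subunit of the enzyme that hydroxylates prolines in new chains and so stabilises the helix, had log2 values of 7.63, 7.93 and 8.25 in WT and of 11.04, 10.67 and 11.15 in KrP samples (log2 fold change 3.02 ± 0.19 SE, adjusted p = 0.00116). The related subunits P4ha1 and P4ha2 differed by less than 0.1 on the log2 scale and did not pass.

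The lysyl hydroxylases Plod1 and Plod2, which prepare chains for crosslinking, rose by 1.28 and 1.54 on the log2 scale, and Adamts14, which trims the start of procollagen, by 1.21. Tll1, a tolloid-like protease that trims the end of procollagen, fell instead. Its log2 values were 8.91, 8.65 and 8.58 in WT and 6.39, 6.88 and 6.46 in KrP samples (log2 fold change -2.14 ± 0.17 SE, adjusted p = 0.00162). Bmp1, the best known protease of that activity, had a log2 fold change of -0.11 and did not pass. The crosslinking enzyme Loxl4 fell by 0.65 on the log2 scale, whereas its relatives had higher means in KrP samples. Loxl3 (0.92, adjusted p = 0.110 by limma, or 0.0337 with the block) and Loxl1 (0.66, 0.260, or 0.00479 with the block) did not pass in the main fit but passed with the block. Loxl3 also passed in 1 of the fits with a sample left out. Lox (0.19, adjusted p = 0.829) did not pass. For the helix chaperone Serpinh1 the difference was 0.24 (adjusted p = 0.275). Pcolce2 fell with the block (-0.56, adjusted p = 0.146 by limma, or 0.00754 with the block). P4ha1, P4ha2, Bmp1, Lox, Loxl1, Loxl3, Serpinh1 and Pcolce2 were picked after their values were seen.

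Of 18 fibril-associated genes 2 rose and 1 fell (the block gave 6 and 2). The small proteoglycan Ogn rose by 1.67 and the matricellular protein Thbs2 by 0.30, and the proteoglycan Podn fell by 0.57, all on the log2 scale. Fmod, chosen after its values were seen, fell with the block (-1.03, adjusted p = 0.104 by limma, or 0.00440 with the block). Of 13 measured collagen receptors 0 rose and 2 fell, with log2 fold changes of -1.10 for Cspg4, a cell-surface proteoglycan that binds collagen VI, and -0.79 for Antxr2, a matrix receptor. With the block 2 receptors rose and 3 fell. The risers were the integrin chain Itga1 (1.82, adjusted p = 0.106, or 0.00541 with the block) and the collagen uptake receptor Mrc2 (0.57, adjusted p = 0.247, or 0.0274 with the block). The integrin chain Itga2 fell with the block, beside Cspg4 and Antxr2 (-0.77, adjusted p = 0.112 by limma, or 0.00657 with the block). Itga1, Mrc2 and Itga2 were chosen after their values were seen. Of 13 genes for collagen breakdown and its inhibitors 1 rose and 3 fell (the block gave 3 and 3). The gelatinase Mmp9, the collagenase Mmp13 and the lysosomal collagen-degrading protease Ctsk had log2 fold changes of -1.87, -1.21 and -0.52. Timp1, an inhibitor of matrix metalloproteinases, rose from 12.18 ± 0.20 to 13.18 ± 0.15 (SD, n = 3 each; adjusted p = 0.00707). The collagenase Mmp8 went up, unlike Mmp13, and did not pass in the main fit but passed with the block (1.09, adjusted p = 0.0821, or 0.00331 with the block). The same held for the inhibitor Timp3 (1.10, adjusted p = 0.0718, or 0.00150 with the block). Each of these genes also passed in 1 of the fits with a sample left out. Mmp8 and Timp3 were chosen after their values were seen.

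**Figure D5:**
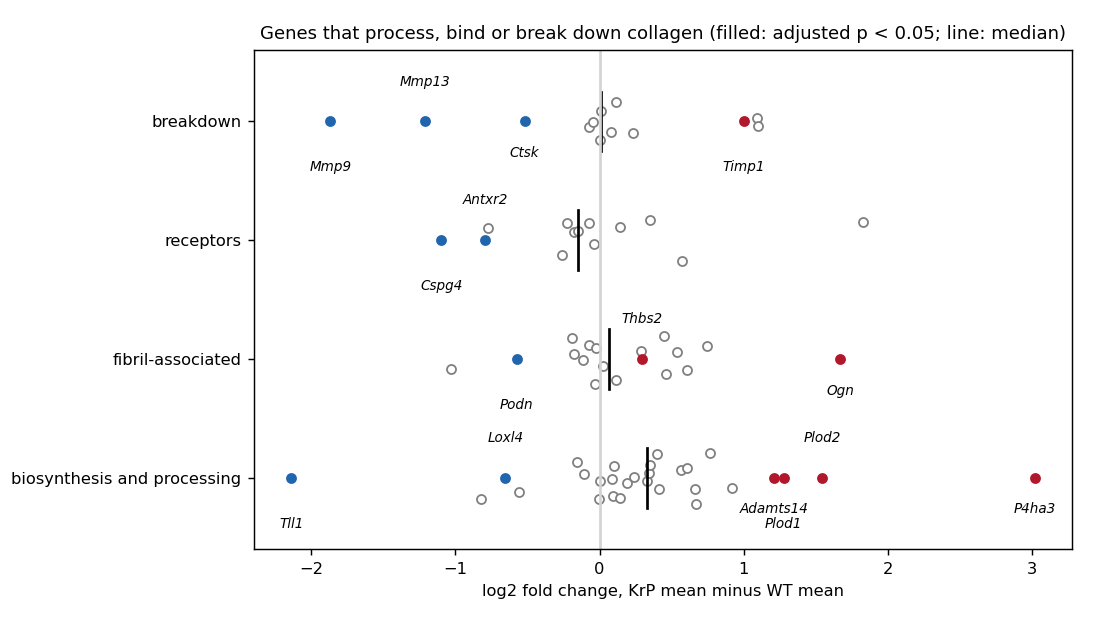
Log2 fold change (KrP mean minus WT mean, horizontal axis) of 73 genes that make and process, bind or break down collagen, one row per list, with filled and named points for the 7 genes that rose and the 8 that fell and a vertical line for the median of each list. P4ha3 is farthest to the right at 3.02 and Tll1 farthest to the left at -2.14.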

How the data were processed

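The authors deposited log2 expression values by probe set. The submitters' processing notes list RMA and Partek but give neither a version nor a role, and the values were not normalised again. A genome build for the array is not given in the sources used here. Of 34390 probe sets, 23521 had 1 gene symbol in the platform annotation, 1814 several and 9055 none. Symbols were updated by gene ID through a RefSeq table (GRCm38.p6), which matched 23328 of them. A probe set that names Col6a1 with other genes was left out.

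KrP and WT were compared over 22180 genes by limma (version 3.58.1, R 4.3.3) using lmFit, then eBayes with trend, without filter or block, tested on simulated data. A call needs an adjusted p (Benjamini-Hochberg) under 0.05. Intervals are limma's 95% intervals. Figures used matplotlib 3.10.9 and tables pandas 2.3.3 in Python 3.11.15. Arrays carry no read depth, so their number limits the precision. The descriptions of KrP 2 and KrP 3 name another keratin than their source names and genotypes do, and the latter were used.

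The groups share the replicate numbers 1 to 3. For samples of equal number, deviations from the group means had correlations over genes of 0.414, 0.350 and 0.120, each above 0.1. For samples of unlike number the correlations ran from -0.385 to 0.067, the latter for WT 2 with KrP 3, near the 0.120 of WT 3 with KrP 3. Deviations within a group cancel out, so these correlations are not independent of each other. Samples of equal number were treated as possibly paired, which no label states. Blocked values stand beside results whose call or count they alter.

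The members, classes, lists and tests were chosen with earlier results of these data known. Every chain may be named, with values by sample for called chains, partner chains and the 3 largest differences of a class, and called genes are named in the other lists. Genes beyond that were chosen after their values were seen. P-values are from limma or, for partner chains, from the exact permutation test. The alternatives were a replicate block, no trend, a robust prior, array weights, dropping the lower 25% or 50% of genes, quantile normalisation, median centring, averaged probe sets, and leaving out samples.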

Additional observations from a re-analysis of the deposited data

How the results depend on the processing

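The 5 calls among collagen chains stood with no trend, a robust prior, either filter on dim genes, median centring and averaged probe sets. The count was 10 with the replicate block, 18 with array weights and 2 after quantile normalisation, and 0 to 9 when 1 sample was left out. All genes gave 1851 calls with the block, 6410 with array weights, 449 after quantile normalisation, 85 to 1116 without 1 sample and 890 without both samples numbered 2, against 483. The related lists gave 33 calls with the block, 47 with array weights and 3 to 22 without 1 sample, against 15. Fits without a sample also rest on fewer samples, and the cause of these shifts was not tested. Of 31 chains with a log2 fold change of at least 0.1 in size, Col16a1 alone changed sign, with -0.052 to 0.24 when 1 sample was left out. Each of the 13 chains nearer 0 changed sign under at least 1 of 16 alternatives. The 10 chains below background in both groups have compressed differences.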

Other observations

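Several collagen genes are neighbours on the chromosome, with no protein-coding gene of the RefSeq table between them. Col3a1 and Col5a2 had log2 fold changes of 0.84 and 0.57, Col6a1 and Col6a2 of 0.48 and 0.68, and Col4a1 and Col4a2 of -0.65 and -0.71. Col6a4, Col6a5 and Col6a6, which also lie side by side, had -0.22, -0.58 and -0.0033. The pairs Col4a3 with Col4a4 (-0.10 and -0.26), Col4a5 with Col4a6 (-0.01 and -0.02) and Col9a1 with Col19a1 (-0.01 and -0.05) lay below background in both groups. Of these genes Col4a1 and Col4a2 passed the limma test, and neighbouring genes are not independent observations.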
